A study of Mus musculus with 4 samples.

Results

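The BCL2 family genes described here are 10 of the 31053 genes in the deposited count matrices, chosen by symbol and not by any measured value. They comprise 3 survival genes (Bcl2, Bcl2l1, Mcl1), 2 effector genes (Bax, Bak1) and 5 BH3-only genes (Bcl2l11, Bbc3, Pmaip1, Bid, Bad). Each symbol matched 1 gene of the matrices. The cells came from mouse bone marrow and were sequenced one by one on the 10x 3′ platform, with 1 library for each of 2 sorted populations in 2 genotypes. KLS cells, the lineage-negative, c-Kit+ and Sca-1+ fraction that holds stem and progenitor cells, were taken from mice of 8 to 12 weeks. The stromal sort, called MSC, was taken from collagenase-treated bone of mice of 6 to 8 weeks as CD45neg, Ter119-/low, CD71-, Sca-1+ and CD140a+ cells. STAT5 KO mice were Vav1-Cre/+STAT5abfl/fl and control mice were Vav1-Cre/+STAT5ab+/+, so both genotypes carried Vav1-Cre, a transgene that deletes floxed genes in blood cells. The labels name 4 mice for the KLS sort, without saying whether they were pooled or counted per genotype. Stat5a and Stat5b are the transcription factor genes deleted by this cross, and they act downstream of cytokine receptors.

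The BCL2 family controls the mitochondrial route of programmed cell death. Survival members hold the effectors BAX and BAK1 in check, and BH3-only members, induced or activated by stress, loss of growth factors or DNA damage, bind survival members or activate the effectors directly. Active BAX and BAK1 open the outer mitochondrial membrane, cytochrome c is released and caspases are activated. In blood formation, MCL1 is needed for stem cells, BCL2 supports lymphocytes, and BCL-XL, the main product of Bcl2l1, supports maturing red cells and platelets. STAT5 is known as an activator of Bcl2l1 in cells that respond to erythropoietin.

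The libraries differed greatly in size. In control, 3747 barcodes of the KLS library shared 55138419 UMIs (unique molecular identifiers, 1 per captured transcript), and in STAT5 KO 7511 barcodes shared 82466835. For the MSC sort, 672 control barcodes shared 1874023 UMIs and 425 STAT5 KO barcodes shared 1270763. Of these barcodes, 393, 295, 229 and 200 in that order were also present in another library, and those with more UMIs in the other library (388, 281, 33 and 17) were left out. The cells kept numbered 3085, 6726, 577 and 374, with medians of 15136, 10085, 2732 and 2496 UMIs. Stat5a in KLS cells was 68.5 CPM (UMIs of a gene per 1000000 UMIs of its sum of cells) in control against 6.74 in STAT5 KO, and Stat5b was 60.8 and 4.49 CPM. In stromal cells Stat5a was 45.9 CPM in control against 61.7 CPM in STAT5 KO, and Stat5b was 56.4 and 50.3 CPM, so these genes give no check of the genotype labels there. Among sort markers, the CD45 gene Ptprc, Kit and Ly6a (Sca-1) were detected in both KLS libraries, and Ptprc was at 0 in the stromal cells because cells with a Ptprc UMI were not counted as stromal. Every comparison sets 1 library against 1 library, so there was no test, and each 95% interval covers counting error only and not the spread between mice.

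On GRCm38, the survival genes lie on chromosome 1 (Bcl2, 106538178 to 106714274, minus strand), chromosome 2 (Bcl2l1, 152780668 to 152831728, minus strand) and chromosome 3 (Mcl1, 95658788 to 95663176, plus strand). Bax lies on chromosome 7 (45461697 to 45466898, minus strand) and Bak1 on chromosome 17 (27019810 to 27029009, minus strand). Of the BH3-only genes, Bcl2l11 lies on chromosome 2 (128126038 to 128162547, plus strand), Bbc3 on chromosome 7 (16308393 to 16318205, plus strand), Bid on chromosome 6 (120891930 to 120916853, minus strand) and Bad on chromosome 19 (6941861 to 6951899, plus strand). Bax overlaps Gm45808 on the same strand, and Bcl2, Bak1, Bid and Bad each overlap an annotated gene on the other strand (D630008O14Rik, Ggnbp1, Bcl2l13 and Gpr137). The strand rule of the counting is not given in the sources used here, so reads in these overlaps may be shared.

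Bcl2l1 is the member that stood far above all others in the erythroid-like cells described further on, and 2 of its 3 upstream windows of 250 bases are shown for that reason, each ending at the base before an annotated start. The sequences are from RefSeq (GRCm38.p6, minus strand, 5′ to 3′), and capitals mark AGATAA, a form of the motif bound by GATA factors. The first is at chr2:152828490-152828739 and the second, next to the outermost start, at chr2:152831729-152831978.
Bcl2l1 inner window: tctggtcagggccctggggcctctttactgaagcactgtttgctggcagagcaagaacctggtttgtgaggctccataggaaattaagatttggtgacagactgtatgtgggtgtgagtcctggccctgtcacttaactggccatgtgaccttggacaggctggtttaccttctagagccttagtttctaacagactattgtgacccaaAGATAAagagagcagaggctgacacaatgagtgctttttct
Bcl2l1 outer window: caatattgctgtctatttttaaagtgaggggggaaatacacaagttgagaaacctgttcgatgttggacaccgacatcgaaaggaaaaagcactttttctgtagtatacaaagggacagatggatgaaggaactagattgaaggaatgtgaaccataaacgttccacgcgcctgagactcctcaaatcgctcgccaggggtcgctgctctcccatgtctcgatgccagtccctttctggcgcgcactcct
RefSeq windows were found for 9 of the 10 members, 15 windows in all. AGATAA, searched on both strands, was in 1 of these 15 windows and in 9.99% of 32851 windows of all genes. TTCNNNGAA, the spaced motif bound by STAT factors, reads the same on both strands and was in 0 of the 15 windows and in 7.02% of all windows. The motifs and the windows shown were picked with the expression values known, and a match or its lack in 250 bases says nothing of binding.

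In KLS cells, effector transcripts were higher in the STAT5 KO library, Bcl2l1 was lower, and the level of the BH3-only gene Pmaip1 (NOXA), low in both libraries, was higher. Bax was 76.2 CPM in control against 92.7 CPM in STAT5 KO, and Bak1 was 52.8 and 64.7 CPM. Bcl2l1 was 14.9 CPM in control against 12.3 CPM in STAT5 KO. A gene was called when its CPM differed by more than 1.2-fold, its interval excluded no difference and at least 50 UMIs were counted over both sides. All 10 members could be called, and 3 were higher and 1 was lower, against 10.5% higher and 15.9% lower of the 12848 genes tested. The median log2 ratio (STAT5 KO over control) was 0.07 over the members and -0.01 over all genes tested.

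Among the survival genes, Bcl2l1 had a log2 ratio of -0.27 (95% interval -0.41 to -0.13), from 760 UMIs in control and 943 in STAT5 KO. This difference lies on the limit of the call: it was not called with TMM scaling (-0.26) or with the STAT5 KO cells weighted to the control mix of gates (-0.25). Bcl2, the survival gene first found in lymphoma, was 138.3 CPM in control against 156.0 CPM in STAT5 KO, a log2 ratio of 0.17 (0.13 to 0.22) that did not reach 1.2-fold. Weighted to the control mix of gates it was 0.09. Mcl1, whose protein turns over quickly, was 188.9 and 172.6 CPM, with a log2 ratio of -0.13 (-0.17 to -0.09), also short of the call.

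Both effector genes were called higher. Bax, whose protein moves from the cytosol to mitochondria on activation, had a log2 ratio of 0.28 (0.23 to 0.34), and Bak1, whose protein resides at mitochondria, had 0.29 (0.23 to 0.36). These are differences of 1.22-fold and 1.23-fold. Over the alternatives tried Bax stayed between 0.25 and 0.29 and Bak1 between 0.23 and 0.30 on the log2 scale, and neither was called when mitochondrial, ribosomal protein and hemoglobin genes were taken out of the totals (0.25 and 0.26). Bak1 was also not called with a stricter cell filter (0.25) or with the weighted gate mix (0.23). In cells thinned to 4000 UMIs, Bax had a UMI in 25.4% of 3061 control cells and 29.97% of 6437 STAT5 KO cells, and Bak1 in 18.2% and 22.0%. Without thinning the order was the other way, at 63.8% and 57.6% for Bax and 52.9% and 46.7% for Bak1, where the control cells were deeper. No cell type here is known to lack these genes, so no background share from free RNA was measured.

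Among the BH3-only genes Pmaip1 had a large ratio, Bbc3 a small one, and Bcl2l11, Bid and Bad had ratios near 0. Pmaip1, a p53 target on chromosome 18 (66458533 to 66465565, plus strand) whose protein binds MCL1, gave 40 UMIs in 36 of 3085 control cells and 180 UMIs in 168 of 6726 STAT5 KO cells. Its levels were 0.78 and 2.36 CPM, and its log2 ratio was 1.59 (1.09 to 2.12). Bbc3 (PUMA), another p53 target, was 13.5 and 14.9 CPM, a log2 ratio of 0.14 (0.00 to 0.28) that was not called. Bcl2l11 (BIM), the BH3-only gene linked to cytokine withdrawal, was 23.3 and 23.1 CPM with a log2 ratio of -0.02 (-0.12 to 0.09). Bid, which links death receptors to mitochondria, had 0.00 (-0.09 to 0.10), and Bad, which growth factor signalling holds inactive by phosphorylation, had 0.01 (-0.08 to 0.09). For Bcl2l11, Bid and Bad the counting intervals reach at most 0.12 from 0.

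**Figure D1:**
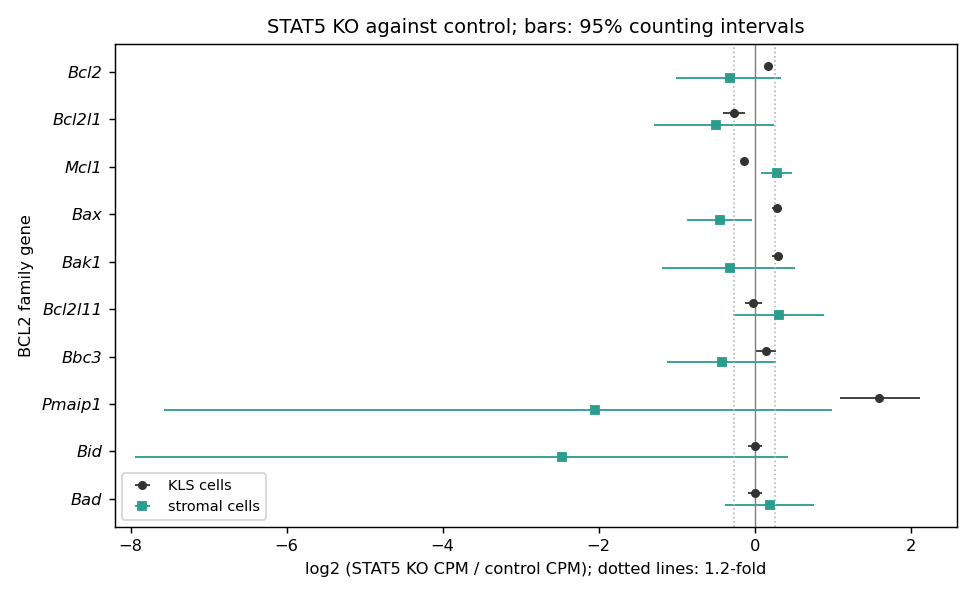
Log2 ratio of STAT5 KO over control CPM (x axis) for the 10 members (y axis) in KLS cells (circles) and stromal cells (squares), with 95% counting intervals. In KLS cells Pmaip1 stands at 1.59 and Bax and Bak1 at 0.28 and 0.29, while the intervals of the stromal cells are wide and those of Pmaip1 and Bid rest on 7 and 9 UMIs.

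The mix of KLS cells differed between these libraries beside the ratios above. HSC-like cells made up 18.2% of control and 9.26% of STAT5 KO cells, and myeloid cells 5.67% and 12.7%. The 4 myeloid granule genes summed to 1133 CPM in control against 1875 CPM in STAT5 KO, and the 3 stem cell genes to 349 and 235 CPM. The 10 stress genes summed to 904 and 1057 CPM, and 4 of the 10 were called higher. Their part in the ratios was tested only for the gate mix, through the weighted values, where Bax was 0.26, Bak1 0.23 and Pmaip1 1.28.

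Levels differed more between lineage gates than between genotypes for Bcl2. Gates were set on cells thinned to 4000 UMIs: Klf1 with Gata1 (erythroid-primed), Pf4 (megakaryocyte-primed), Dntt (lymphoid-primed), 4 granule genes (myeloid) or more than 1 of these (mixed). Cells in none were split by UMIs of Hlf, Mecom and Procr into HSC-like (2 or 3 of them), intermediate (1) and multipotent without stem markers (0). The gates held 18 to 977 control cells and 42 to 2235 STAT5 KO cells. The smallest in both libraries was the erythroid-primed gate, with 18 and 42 cells.

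Bcl2 was lowest in erythroid-primed cells, next lowest in HSC-like cells, and higher in the other lineage gates. In control it was 56.1 CPM in erythroid-primed, 85.7 in HSC-like, 106.4 in intermediate, 129.2 in multipotent, 167.1 in megakaryocyte-primed, 174.3 in lymphoid-primed, 182.1 in myeloid and 222.9 in mixed cells. Megakaryocyte-primed, lymphoid-primed and myeloid cells, next to each other in this order, did not differ beyond counting error, and each other step did. In STAT5 KO the HSC-like, intermediate and multipotent levels (114.1, 121.4 and 127.9 CPM) did not differ stepwise. The multipotent level there was still 1.12-fold the HSC-like level (1.02 to 1.23). The lymphoid-primed level was 2.03-fold the HSC-like level in control (1.87 to 2.22) and 1.63-fold in STAT5 KO (1.5 to 1.77).

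Mcl1 was highest in HSC-like cells, at 219.8 CPM in control against 206.4 CPM in STAT5 KO. It was lowest in erythroid-primed cells, at 98.1 and 97.1 CPM. In the control order, those 2 gates were separated from their neighbours beyond counting error and the 6 others ran from 153.9 to 201.0 CPM with no neighbouring step beyond it. Bcl2l1 was highest in megakaryocyte-primed cells, with 27.9 CPM from 27 UMIs in control and 32.2 CPM from 65 UMIs in STAT5 KO, and lowest in lymphoid-primed cells in control, at 10.9 CPM. No neighbouring step of the control order exceeded counting error for Bcl2l1, and in STAT5 KO only the step up to megakaryocyte-primed cells did. Steps between neighbours do not compare gates further apart. Against control HSC-like cells, Bcl2l1 had log2 ratios of -0.53 (-0.87 to -0.18) in lymphoid-primed and -0.52 (-1.06 to -0.01) in myeloid cells. It had 0.82 (0.16 to 1.44) in megakaryocyte-primed cells, and the intervals of the other control gates included 0.

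Erythroid-primed cells had the highest summed effector level, 252 CPM in control and 222 in STAT5 KO, and the lowest summed survival level, 168 and 158 CPM. Bax was 156.5 CPM there in control and 140.1 CPM in STAT5 KO, against 70.7 to 110.4 CPM in the other control gates, and Bak1 was 95.8 and 81.8 CPM. The ratio of Bax plus Bak1 UMIs to Bcl2 plus Bcl2l1 plus Mcl1 UMIs was 1.5 (1.10 to 2.05) in control and 1.40 (1.10 to 1.80) in STAT5 KO. In the other gates the ratio ran from 0.317 in lymphoid-primed control cells to 0.551 in multipotent STAT5 KO cells. Erythroid-primed cells expressed Klf1 and Gata1 by their rule, and they numbered only 18 and 42. In control, 1 cell held 18 of the 67 Bax UMIs of this gate, and 1 cell held 10 of the 41 Bak1 UMIs. In STAT5 KO the most in 1 cell were 10 of 101 Bax UMIs and 9 of 59 Bak1 UMIs. The counting intervals do not cover this spread between cells.

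**Figure D2:**
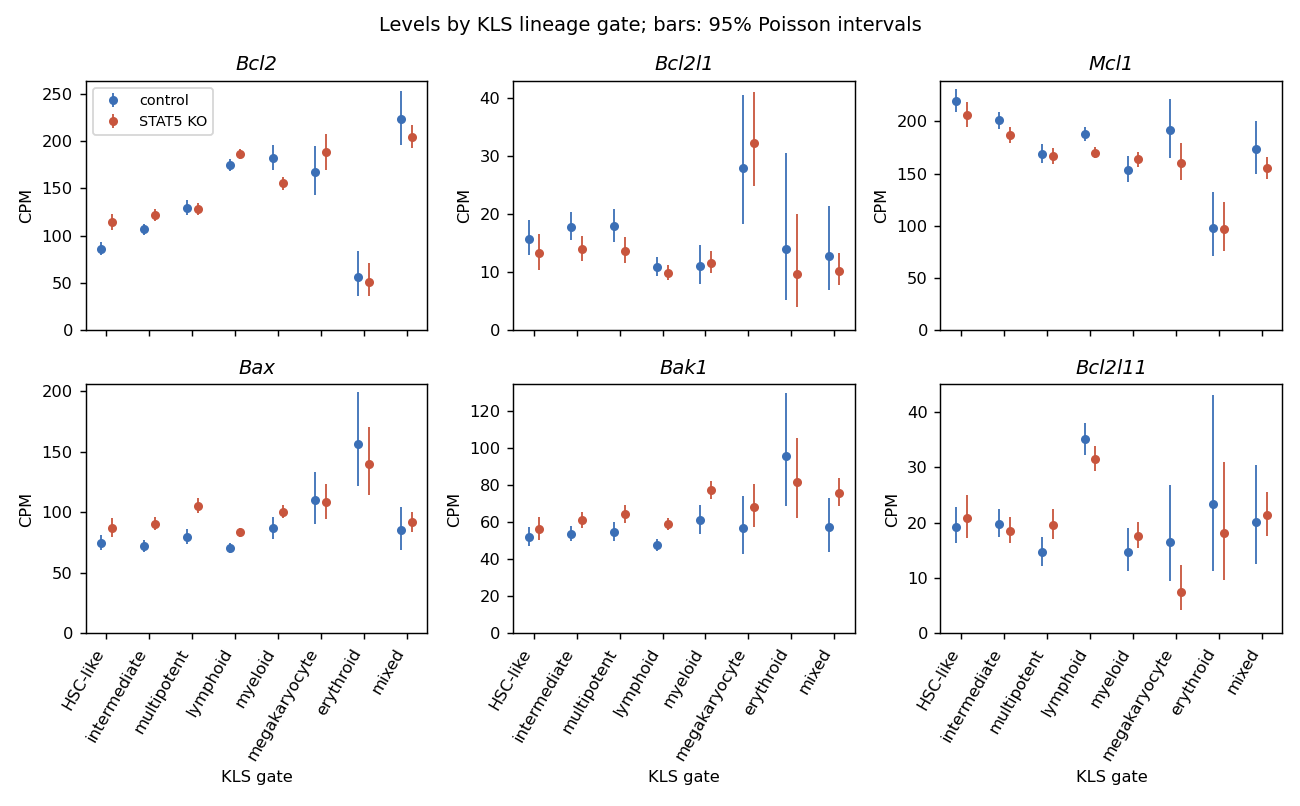
CPM (y axis) of 6 members in the 8 KLS gates (x axis) in control and STAT5 KO libraries, with 95% Poisson intervals. Bcl2 climbs from 85.7 CPM in HSC-like to 174.3 CPM in lymphoid-primed control cells while Mcl1 is highest in HSC-like cells, and Bax and Bak1 peak in erythroid-primed cells.

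Bcl2l11 had its highest level in lymphoid-primed cells, at 35.0 CPM in control against 31.5 CPM in STAT5 KO. The other control gates held 14.6 to 23.4 CPM. In STAT5 KO the step up to lymphoid-primed cells from the next gate exceeded counting error. In control the step from the next gate, erythroid-primed with 10 UMIs, did not (log2 ratio 0.58, -0.30 to 1.65). The lowest Bcl2l11 level was in megakaryocyte-primed STAT5 KO cells, at 7.44 CPM from 15 UMIs, against 16.5 CPM from 16 UMIs in control. Pmaip1 gave 0 UMIs in both libraries in erythroid-primed cells, which allows up to 7.01 CPM in control against 4.16 CPM in STAT5 KO.

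Within gates, genotype differences were spread over several members. Of the 80 pairs of a member and a gate, 68 had enough UMIs, and 11 were higher and 3 lower in STAT5 KO, against 10.0% higher and 7.81% lower of all 73614 gene and gate pairs. Bax went from 72.1 to 90.5 CPM in intermediate cells (log2 ratio 0.33, 0.20 to 0.46) and from 79.8 to 105.5 CPM in multipotent cells (0.40, 0.26 to 0.54). Bak1 went from 47.7 to 59.0 CPM in lymphoid-primed cells (0.31, 0.18 to 0.43), from 61.0 to 77.2 CPM in myeloid cells (0.34, 0.14 to 0.55) and from 57.3 to 76.0 CPM in mixed cells (0.41, 0.02 to 0.81). Pmaip1 was called higher in lymphoid-primed cells, with 14 and 56 UMIs (log2 ratio 1.38, 0.52 to 2.34), and in myeloid cells, with 4 and 49 UMIs (1.93, 0.49 to 3.87). The Bax call in multipotent cells was lost with the gate minimums doubled (0.25), as was the Bak1 call in myeloid cells (0.20). The Bax call in multipotent cells was also lost with gates set without thinning (0.45, -0.07 to 1.00). The Bak1 ratio in mixed cells ran from 0.28 to 1.85 over the alternatives and was not called with doublets kept (0.31) or a stricter cell filter (0.31). It was also not called as a mean of single-cell CPM (0.35). The same held with mitochondrial, ribosomal protein and hemoglobin genes taken out of the totals (0.38). The Pmaip1 call in myeloid cells was lost with doublets kept (1.10) and with gates set without thinning (1.48). It was also lost with gates set at 2000 UMIs (1.28, -0.41 to 3.64) and with the gate minimums doubled (2.46, -0.16 to 7.81). Pmaip1 in lymphoid-primed cells was not called with gates set without thinning (1.26, -0.11 to 2.87). At the 1.2-fold rule, Bax in intermediate and Bak1 in lymphoid-primed cells were called under every alternative cell filter, scaling and gate setting tried.

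The remaining higher calls were in single gates. Bcl2 in HSC-like cells was 85.7 CPM in control against 114.1 CPM in STAT5 KO (log2 ratio 0.41, 0.25 to 0.57), but 0.19 with gates set at 2000 UMIs. The HSC-like cells had medians of 9570.5 and 7626 UMIs. Bbc3 in HSC-like cells was 15.6 and 25.0 CPM (0.68, 0.31 to 1.05), and not called with gates set without thinning (0.29) or at 2000 UMIs (0.45). Bcl2l11 in multipotent cells was 14.6 and 19.5 CPM (0.42, 0.09 to 0.75), and was not called with gates set without thinning (0.59, -0.79 to 2.31). Bad in megakaryocyte-primed cells was 30.95 and 53.04 CPM (0.78, 0.18 to 1.41), from 30 and 107 UMIs. At the 1.2-fold rule this Bad difference was also called under every alternative cell filter, scaling and gate setting tried (0.48 to 1.00).

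The lower calls were Bcl2l1 in intermediate cells, from 17.8 to 13.9 CPM (log2 ratio -0.35, -0.64 to -0.06), Bcl2l1 in multipotent cells, from 17.9 to 13.7 CPM (-0.38, -0.72 to -0.05), and Bid in mixed cells, from 45.5 to 31.2 CPM (-0.55, -1.01 to -0.06). The Bid ratio turned to 0.0555 with gates set without thinning and 0.49 at 2000 UMIs, and was not called in either. As a mean of single-cell CPM it was -0.38 and not called. Bcl2l1 in intermediate cells was not called with gates set at 2000 UMIs (-0.03) or without thinning (-0.34, -0.93 to 0.26), or as a mean of single-cell CPM (-0.29). Bcl2l1 in multipotent cells was not called with gates set without thinning (-0.19), a stricter cell filter (-0.28) or the gate minimums doubled (-0.27). In lymphoid-primed and myeloid cells Bcl2l1 had log2 ratios of -0.15 (-0.43 to 0.14) and 0.08 (-0.41 to 0.60), which were not called. The loss of Stat5a was not equal over the gates: STAT5 KO held 28.0% of the control level in HSC-like, 21.8% in megakaryocyte-primed, 5.52% in myeloid and 1.82% in lymphoid-primed cells.

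The summed effector to survival ratio in all KLS cells was 0.377 (0.366 to 0.388) in control and 0.462 (0.452 to 0.472) in STAT5 KO. It was larger in STAT5 KO in 7 of the 8 gates, the erythroid-primed gate being the exception. In intermediate, multipotent, lymphoid-primed and myeloid cells the counting intervals of the 2 libraries did not overlap, with 0.387 and 0.471, 0.425 and 0.551, 0.317 and 0.389, and 0.426 and 0.537. In HSC-like cells the values were 0.395 (0.366 to 0.427) and 0.428 (0.394 to 0.465), and the intervals overlapped. How often ratios of other summed genes part in this way between the 2 libraries was not measured. Intervals that do not overlap are therefore not read as particular to this family. The ratio compares cells, not genes, since the capture of each transcript may differ.

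**Figure D3:**
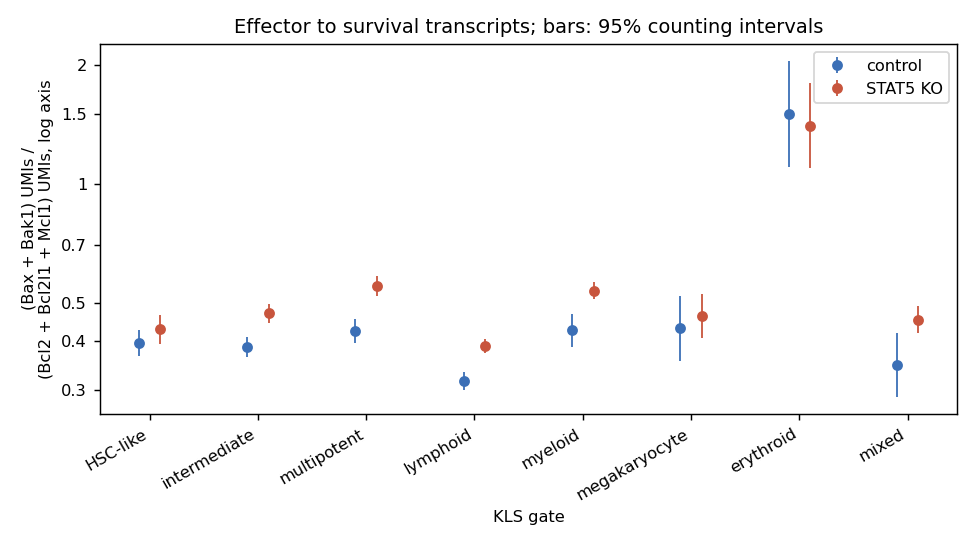
Ratio of Bax plus Bak1 UMIs to Bcl2 plus Bcl2l1 plus Mcl1 UMIs (y axis, log scale) in the 8 KLS gates (x axis) in each library, with 95% counting intervals. The erythroid-primed gate lies at 1.5 and 1.40, and every other gate is at or below 0.551 with STAT5 KO above control.

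Some cells of the STAT5 KO library still held a Stat5a or Stat5b UMI after thinning to 4000 UMIs, 243 of 6437. In them Bcl2l1 was 20.9 CPM against 12.0 CPM in the 6194 cells without (log2 ratio 0.80, 0.38 to 1.198), and Bcl2 was 116.6 against 157.5 CPM (-0.43, -0.60 to -0.27). Bax was 111.3 against 92.0 CPM (0.27, 0.10 to 0.44) and Bbc3 22.8 against 14.6 CPM (0.64, 0.24 to 1.02). The intervals of the other members included 0. The make-up of these 243 cells differed too: 27.98% were HSC-like and 7.00% megakaryocyte-primed, against 8.96% and 2.29% of the cells without. Lymphoid-primed cells, where Bcl2l1 is low and Bcl2 high, made up 8.23% and 35.8%. The part of this make-up in these differences was not tested. This split was made after the data were seen.

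The stromal cells of the MSC sort, 404 in control and 253 in STAT5 KO, held a different balance of survival genes from KLS cells. Between the control libraries, Bcl2 was 36.7 CPM in stromal and 138.3 CPM in KLS cells, a log2 ratio of -1.91 (-2.32 to -1.54). Bcl2l1 was 30.8 against 14.9 CPM (1.05, 0.59 to 1.48), and Mcl1 was 303.5 against 188.9 CPM (0.68, 0.55 to 0.82). Among the effectors, Bak1 was 23.6 against 52.8 CPM (-1.16, -1.68 to -0.69) and Bax was 95.7 against 76.2 CPM (0.33, 0.08 to 0.57). The Bax difference was -0.07 when mitochondrial, ribosomal protein and hemoglobin genes were taken out of the totals.

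Of the BH3-only genes, Bid was 5.24 CPM in control stromal cells, from 8 UMIs, against 30.5 CPM in KLS cells (-2.54, -3.76 to -1.56). Bcl2l11 was 36.7 against 23.3 CPM (0.65, 0.24 to 1.04), Bbc3 was 35.4 against 13.5 CPM (1.39, 0.96 to 1.79), and Bad was 40.6 against 35.8 CPM (0.18, -0.21 to 0.55), not called. In all, 5 members were higher and 3 lower in stromal cells of 9 that could be called, against 28.5% higher and 40.7% lower of 12636 genes. With every shared barcode left out only Bcl2l1 and Bbc3 were still called higher (Mcl1 0.26, Bax 0.13, Bcl2l11 0.68 with an interval of -0.02 to 1.30), and with mitochondrial, ribosomal protein and hemoglobin genes taken out of the totals Bax and Bcl2l11 were not. The median log2 ratio of all genes was -0.36, and of the members 0.33. The sort, the age of the mice and the digestion of the bone differ with the population and cannot be told apart. The stress genes summed to 18676 CPM in control stromal cells and 904 CPM in control KLS cells.

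**Figure D4:**
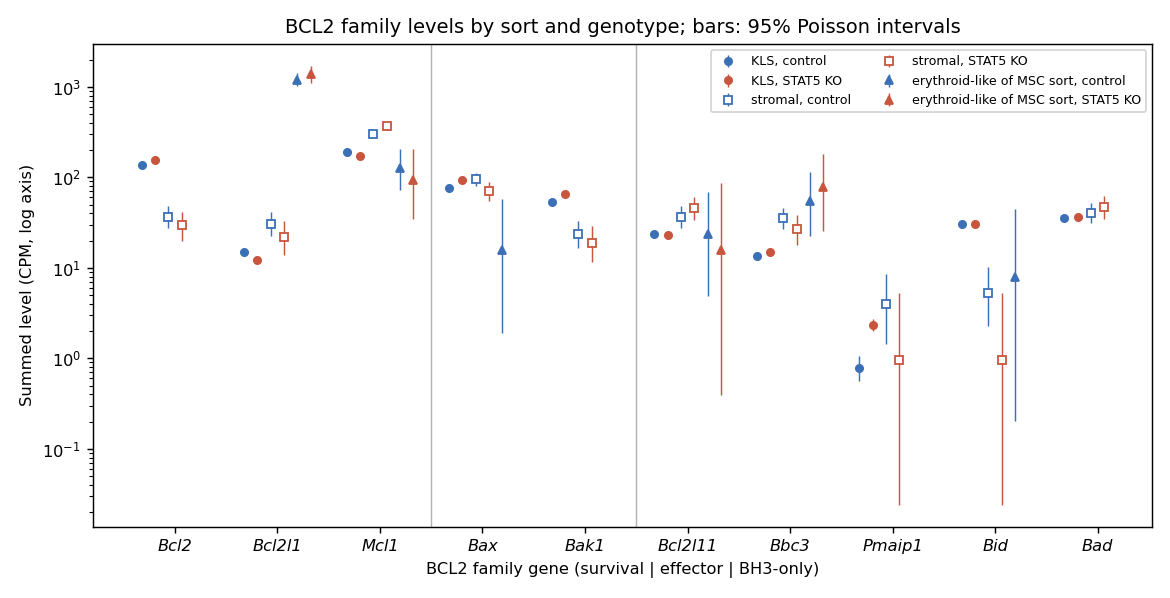
Summed level in CPM (y axis, log scale) of the 10 members (x axis) in KLS cells, stromal cells and erythroid-like cells of the MSC sort, with 95% Poisson intervals, values of 0 not drawn. Bcl2l1 is above 1000 CPM only in the erythroid-like cells, and Bcl2 is lower in stromal than in KLS cells of both genotypes.

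In stromal cells the comparison of genotypes called 1 member higher and 1 lower of 8 that could be called, against 7.66% higher and 15.1% lower of 6723 genes. Mcl1 was 303.5 CPM in control against 369.0 CPM in STAT5 KO (log2 ratio 0.28, 0.08 to 0.48), a call lost with a stricter cell filter (0.23). Bax was 95.7 and 70.2 CPM (-0.45, -0.87 to -0.03), the opposite direction to KLS cells. The share of cells with a Bax UMI, thinned to 1000 UMIs, ran the other way, at 6.94% in control and 9.02% in STAT5 KO, so no order is read from it. With every barcode shared between libraries left out, which took the stromal cells to 224 and 83, Bax was 0.39 and was not called. As a mean of single-cell CPM it was -0.15. Bcl2 was 36.7 and 29.4 CPM, Bcl2l1 30.8 and 21.8 CPM, Bak1 23.6 and 19.0 CPM, Bcl2l11 36.7 and 45.5 CPM, Bbc3 35.4 and 26.6 CPM, and Bad 40.6 and 46.5 CPM, none of them called. Pmaip1 had 6 UMIs in control and 1 in STAT5 KO, and Bid had 8 and 1.

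The stromal cells also differed in cartilage genes: the 3 chondrocyte markers summed to 2683 CPM in control against 15145 CPM in STAT5 KO, with none at 0, and all 3 were called higher. Of the 10 stromal markers 6 were lower and 2 higher, with a summed level of 56442 CPM in control against 57821 in STAT5 KO. The stromal gate itself was set on these 10 genes and on the chondrocyte markers Col2a1 and Acan. The levels of these genes thus depend in part on how the cells were picked. The 10 stress genes summed to 18676 and 22658 CPM, with 4 higher and 1 lower. The part of these markers in the Mcl1 and Bax differences was not tested. The median log2 ratio of all genes in this comparison was -0.12, and 0.01 with TMM scaling.

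The MSC sort held a second population, 112 control and 82 STAT5 KO cells in which hemoglobin genes exceeded 10% of UMIs, here called erythroid-like. Bcl2l1 was 1204 CPM in control (1020 to 1411), from 152 UMIs in 80 of the 112 cells, and 1382 CPM in STAT5 KO (1109 to 1703), from 88 UMIs in 49 of 82 cells. The log2 ratio between genotypes was 0.20 (-0.20 to 0.59), which was not called. In the same libraries the erythroid-like level stood 5.29 log2 units (4.81 to 5.79) above the stromal level in control and 5.99 (5.31 to 6.72) in STAT5 KO. Taken as CPM over UMIs other than hemoglobin, Bcl2l1 was 2083 and 1856.

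No other member was above 127 CPM in these cells. Bcl2, Bak1, Pmaip1 and Bad were at 0 UMIs in both libraries, which allows up to 23.8 CPM in control against 47.1 CPM in STAT5 KO, and Bax had 2 and 0 UMIs. Mcl1 was 127 CPM from 16 UMIs in control and 94.2 CPM from 6 UMIs in STAT5 KO, and Bbc3 was 55.4 and 78.5 CPM from 7 and 5 UMIs. Of the 16 control Mcl1 UMIs, 11 were in a single cell. Stat5a and Stat5b were at 0 UMIs in these cells of both libraries. The cells were shallow, with medians of 649 and 631.5 UMIs, and had no UMI of Ptprc. Erythroid-primed KLS cells, which carry Klf1 and Gata1 but in which hemoglobin was 0.00677% and 0.0316% of UMIs, had Bcl2l1 at 14.0 and 9.71 CPM, from 6 and 7 UMIs. At the erythroid-like ratio of Bcl2l1 to hemoglobin UMIs, stromal hemoglobin would go with 0.607 of the 47 stromal Bcl2l1 UMIs in control. In STAT5 KO it would go with 0.780 of the 23. Both sets of cells were picked in part by their hemoglobin share, so these values depend on that choice. The part of free RNA in the stromal Bcl2l1 level was not tested. Of the 47 control UMIs, 7 were in a single cell.

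Other genes of the death pathway were counted in lists, each against the background of 10.5% higher and 15.9% lower in KLS cells. Of 15 further BCL2 family genes, 8 had enough UMIs, and 1 was higher and 2 were lower: Bmf, a BH3-only gene, was 0.98 CPM in control against 0.59 CPM in STAT5 KO (log2 ratio -0.73, -1.35 to -0.12), and Bnip3, a mitophagy receptor, was 21.4 and 15.7 CPM (-0.44, -0.56 to -0.32). Bcl2l14 was 2.05 and 1.61 CPM and was not called. Of 16 genes of the apoptosome, caspases and their inhibitors, 3 were higher and 1 lower. Cycs, which encodes cytochrome c, was 209.4 and 270.04 CPM (0.37, 0.33 to 0.40), Endog, a mitochondrial nuclease, was 9.97 and 12.8 CPM (0.36, 0.20 to 0.52), and Casp6, an executioner caspase, was 33.0 and 25.3 CPM (-0.38, -0.48 to -0.29).

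Of 12 genes of p53 and its targets, 2 were higher and 0 lower. Cdkn1a, the cell cycle inhibitor p21, was 30.6 CPM in control against 44.8 CPM in STAT5 KO (0.55, 0.47 to 0.64), and Aen, a nuclease, was 37.2 and 48.4 CPM (0.38, 0.30 to 0.46). Eda2r was 0.29 and 0.54 CPM and was not called. The median of this list was 0.05, against -0.01 over all genes. Of 8 death receptor genes, 0 were higher and 1 lower: Fas was 1.43 and 0.92 CPM (-0.64, -1.13 to -0.15), while Tnfrsf10b was 2.48 and 3.06 CPM and Tnfrsf1a 70.9 and 63.6 CPM, neither called.

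Of 14 regulators of the family, 2 were higher and 2 lower. Pim1 and Pim2 encode kinases that phosphorylate BAD, both known as STAT5 targets, and they parted: Pim1 was 248.2 CPM in control against 317.5 CPM in STAT5 KO (0.35, 0.32 to 0.39), and Pim2 was 15.6 and 10.5 CPM (-0.58, -0.72 to -0.43). Trib3, a stress pseudokinase, was 2.58 and 1.49 CPM (-0.79, -1.16 to -0.42). In stromal cells, where 7.66% of all genes tested were higher and 15.1% lower, the same lists gave 1 higher and 0 lower of 4 further family genes, 1 and 1 of 9 apoptosome genes, 0 and 0 of 4 death receptor genes, 1 and 3 of 8 p53 genes, and 1 and 2 of 12 regulators.

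Across the 8 gates in 2 libraries, 16 sums in all, the genes whose log2(CPM + 1) followed each survival gene most closely were found among 3420 genes with at least 20 UMIs in every sum. Bcl2 was followed by Rasgrp2 (Pearson r = 0.95), Blmh (0.94) and Ptp4a3 (0.90), Mcl1 by Saraf (0.98), Bri3 (0.97) and Iqgap2 (0.97), and Bcl2l1 by Dpf2 (0.96), Rab11a (0.95) and Cd9 (0.91). The Bcl2l1 pattern rests on as few as 6 UMIs in a sum. Within the family, Bax and Bak1 had r = 0.86, and Mcl1 had r = -0.83 with Bax and -0.85 with Bak1. The 16 sums come from 2 libraries and the erythroid-primed gate lies apart for these 3 genes, so the correlations are descriptions.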

How the data were processed

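Counts of UMIs per gene and barcode were deposited by the authors with no normalization. Per the submitters' processing notes Cell Ranger and GRCm38/mm10 were used, and the file headers give software version 3.1.0. The strand rule and cell calling are not given in the sources used here. Gene positions and overlaps are from GENCODE M21.

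Barcodes under 200 detected genes, or over 10% mitochondrial UMIs, were dropped. The highest Scrublet scores (scanpy 1.11.5) were left out at 0.8% of barcodes per 1000 barcodes (112, 451, 4 and 1 barcodes), since the automatic threshold marked 0, 1, 0 and 1. Barcodes with more UMIs in another library were left out. Stromal cells had no Ptprc UMI, at most 10% hemoglobin UMIs and at least 1% UMIs of 12 stromal genes. These were the 10 stromal markers with Col2a1 and Acan. KLS gates needed at least 1 UMI each of Klf1 and Gata1, 2 of Pf4, 1 of Dntt or 10 of Mpo, Elane, Prtn3 and Ctsg in cells thinned to 4000 UMIs. This left out 24 control and 289 STAT5 KO cells. Counts were summed per population and scaled to CPM over all genes.

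With 1 library per group no test was made. Levels carry exact Poisson intervals, shares exact Clopper-Pearson intervals, and ratios exact conditional binomial intervals, all at 95%. A 0 is limited at 3 counts. The number of columns of values without a sample was 0. On simulated data with 200 genes changed 1.5-fold, 94% were called in the KLS comparison (12853 genes) and 62.5% in the stromal comparison (6725 genes). The simulated counts were Poisson draws with no spread between libraries or mice. Changes near the 1.2-fold limit of the call were not simulated. Python 3.11.15, numpy 2.4.6, scipy 1.17.1, R 4.3.3 and edgeR 4.0.16 (TMM factors) were used.

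The members and gene lists were chosen with earlier results of these data known. Named were all members, the 3 genes of each other list with the largest log2 ratio in KLS cells among those with at least 50 UMIs, and the 3 genes most like each survival gene. Alternatives covered the cell filter, doublets, shared barcodes, scaling, averaging over cells, the fold and UMI minimum of the call, the mix of gates, the gate settings and the cells summed.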

Additional observations from a re-analysis of the deposited data

Results flagged for a closer look

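For 3 members the log2 ratio of STAT5 KO over control had opposite signs in different cells, with counting intervals that exclude 0 in each. None of these differences between cells was tested, since each group is 1 library.

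Bcl2 had 0.41 in HSC-like, 0.19 in intermediate and 0.09 in lymphoid-primed cells, and -0.23 (-0.35 to -0.11) in myeloid cells, where it was 182.1 CPM in control against 155.2 CPM in STAT5 KO. The myeloid value was 0.07 with gates set without thinning and -0.04 with the gate minimums doubled.

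Mcl1 had 0.28 in stromal cells of the MSC sort, and -0.13 in all KLS cells, -0.10 in intermediate and -0.14 in lymphoid-primed cells.

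Bax had -0.45 in stromal cells, and 0.28 in all KLS cells, 0.21 in HSC-like, 0.33 in intermediate, 0.40 in multipotent, 0.24 in lymphoid-primed and 0.21 in myeloid cells. The stromal value was 0.39 when every shared barcode was left out. With TMM scaling it was -0.32 (-0.75 to 0.09), and with all kept cells of the MSC sort -0.27 (-0.67 to 0.12). As a mean of single-cell CPM it was -0.15 (-0.57 to 0.26).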

How the results depend on the processing

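No paired analysis was possible because the labels carry no replicate numbers and each group has 1 library, which also leaves no library to leave out. The KLS counts (3 higher, 1 lower) became 1 higher without mitochondrial, ribosomal protein and hemoglobin genes in the totals, 0 lower with TMM scaling or the weighted gate mix, and 1 and 0 at 1.5-fold. The stromal counts (1 and 1) became 0 higher with the stricter cell filter, 0 lower with TMM scaling, all MSC cells or every shared barcode left out, and 0 and 0 at 1.5-fold. The gate counts (11 and 3) became 5 lower with TMM scaling, the reduced totals or gates without thinning, and 4 and 0 at 1.5-fold. Without thinning the 3 lower pairs of the main setting were all lost, so those 5 were other pairs. Higher calls lost there were Bbc3 in HSC-like, Bax and Bcl2l11 in multipotent, and Pmaip1 in lymphoid-primed and myeloid cells. Between the control sorts, 5 higher became 2 with every shared barcode left out and 3 with the reduced totals. With the barcodes that were larger elsewhere kept, each of these counts was as given.

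Bax reversed in stromal cells (0.39, every shared barcode left out) and between sorts (-0.0708, reduced totals), and Bid reversed in mixed cells (0.0555 with gates without thinning, 0.49 at 2000 UMIs). The cause was not tested. TMM scaling took all genes called in stromal cells from 7.66% higher and 15.1% lower to 11.8% and 8.28%. The reduced totals took those between sorts from 28.5% and 40.7% to 22.7% and 53.02%, with a median log2 ratio of -0.76 in place of -0.36 (-0.18 with TMM). Depth limits the stromal and erythroid-like cells, where Pmaip1 and Bid rest on under 10 UMIs.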

Other observations

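The most UMIs in a single control KLS cell were 25 for Bcl2, 24 for Mcl1 and 2 for Pmaip1. With all kept cells of the MSC libraries summed, the log2 ratio of Bcl2l1 between the control sorts was 3.08, against 1.05 with the erythroid-like and other cells left out.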
